A study of Mus musculus with 6 samples.

Results

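CpG-free probes near gene starts are the array probes that lie within 1 kb of an annotated transcription start and whose own sequence contains no CpG dinucleotide. They were selected by sequence and position alone, with no binding value. Of 474380 non-control probes on the arrays, 164636 lay within 1 kb of a start, and 69237 of these (42.1%) held no CpG. After spots flagged as outliers were left out, 69187 remained, of which 35193 were on array design 1 and 33994 on array design 2. They touched 16550 of the 19054 genes that had any probe within 1 kb of their own start.

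The arrays measured Rybp occupancy by ChIP-chip, which is chromatin immunoprecipitation read out on arrays, in embryonic stem (ES) cells of the mouse that were wild type (WT), constitutively knocked out for Eed (Eed-KO) or constitutively knocked out for Dnmt1 (Dnmt1-KO). Cells of all genotypes were kept in serum medium with ESGRO, a leukaemia inhibitory factor preparation, on irradiated fibroblast feeders or on gelatin (the labels do not separate them), and no ages, lines or clones are named. Chromatin was fixed with formaldehyde, sheared to 0.3 to 0.5 kb and precipitated with the Santa Cruz antibody H-115, and precipitated DNA (IP, Cy5) was hybridised together with input DNA (Cy3) after T7 amplification. Each genotype had 1 array of each design, 6 arrays in all, and the designs hold different probes, so there were no replicates and no p-value was computed. The number of arrays limits the precision. The level of a probe is log2 of IP over input, set to 0 at the median of the non-control probes of its array, and input and IP signals are given apart as log2 signals centred in the same way. The array data hold no transcript levels, so the ES cell label was not checked against markers, and the deletions were not checked here.

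Rybp belongs to the variant forms of Polycomb repressive complex 1, the complex that ubiquitinates histone H2A. Without Eed, Polycomb repressive complex 2 cannot place its methyl mark on histone H3 lysine 27, and Dnmt1 copies CpG methylation onto newly made DNA strands. Many mammalian gene starts lie in CpG islands, stretches where CpG is dense and mostly unmethylated, and these islands are known sites of Polycomb binding in ES cells. A probe without CpG reports DNA that contains no methylation site itself but that can lie on the same sheared fragment as a CpG island.

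Sequences of 6 CpG-free probes lying wholly upstream of a start are shown, each above the nearest CpG-holding probe upstream of the same gene, because they show high levels on DNA without CpG. They were picked after their values were seen. Coordinates are those of the deposited files, and no source used here names their genome build. Capitals mark the CpG dinucleotides, and the strand is the one printed in the files. The first 4 pairs belong to the 8 CpG-free probes highest in WT and the last 2 to the 6 with the largest Dnmt1-KO excess among those at 2-fold.
Hdac2, no CpG: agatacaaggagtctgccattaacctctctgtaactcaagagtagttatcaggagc
Hdac2, 1 CpG: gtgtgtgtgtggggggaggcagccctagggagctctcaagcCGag
Eif5a2, no CpG: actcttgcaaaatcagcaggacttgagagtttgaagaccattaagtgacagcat
Eif5a2, 4 CpG: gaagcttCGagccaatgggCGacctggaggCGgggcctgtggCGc
Micu2, no CpG: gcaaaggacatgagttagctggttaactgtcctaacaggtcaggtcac
Micu2, 2 CpG: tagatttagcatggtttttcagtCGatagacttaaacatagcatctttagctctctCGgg
Ptprs, no CpG: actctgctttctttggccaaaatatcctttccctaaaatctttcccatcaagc
Ptprs, 2 CpG: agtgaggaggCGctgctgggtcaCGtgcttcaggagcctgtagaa
Insm1, no CpG: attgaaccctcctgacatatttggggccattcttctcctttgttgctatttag
Insm1, 3 CpG: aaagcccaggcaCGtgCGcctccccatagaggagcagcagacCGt
Hdac6, no CpG: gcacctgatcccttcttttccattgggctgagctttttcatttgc
Hdac6, 2 CpG: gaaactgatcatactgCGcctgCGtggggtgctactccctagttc

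The Hdac2 probe lay at chr10:36663401-36663456, 531 bp upstream of the start of this histone deacetylase gene. Its level was 3.17 in WT, 3.16 in Eed-KO and 3.68 in Dnmt1-KO. The 1-CpG probe printed under it, at chr10:36663515-36663559, was at 0.46, 0.39 and 0.34. The Eif5a2 probe (chr3:28971982-28972035, 375 bp upstream of a gene for a form of translation factor eIF5A) was at 3.02, 2.72 and 3.90, and its 4-CpG partner (chr3:28972256-28972300) at 0.73, 0.33 and 2.29. The Micu2 probe (chr14:56953535-56953582, 186 bp upstream of a regulator of the mitochondrial calcium uniporter) was at 2.70, 2.40 and 2.89, against 2.07, 1.97 and 1.42 at its 2-CpG partner (chr14:56953851-56953910). The Ptprs probe, at chr17:56110436-56110488 in the promoter of a receptor tyrosine phosphatase gene, was at 2.64, 2.37 and 3.57, and the 2-CpG probe at chr17:56110253-56110297 was at 0.76, 0.63 and 1.22. At these 4 pairs the probe without CpG had the higher level in all 3 genotypes. These CpG-free probes were picked for their high WT levels and the partners by position, so the choice itself favoured this order. The order therefore says nothing of CpG-free probes in general.

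The other pairs were high in Dnmt1-KO. The Insm1 probe (chr2:145913048-145913100, 477 bp upstream of a neuroendocrine transcription factor gene) was at 1.45 in WT, 1.98 in Eed-KO and 6.20 in Dnmt1-KO. Its 3-CpG partner (chr2:145913202-145913246) was at 0.35, 0.46 and 3.85. The Hdac6 probe (chrX:7104971-7105015, upstream of a tubulin deacetylase gene) was at -0.32, -0.22 and 4.62, and the 2-CpG probe at chrX:7105100-7105144 was at 0.06, 0.19 and 4.20. Its IP signal in Dnmt1-KO was 8.64 and its input signal 4.06, against -0.11 and 0.25 in WT. In the knockout both channels were far above the array median at this probe, and its IP signal there was saturated.

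Most CpG-free probes were near the array median. Their median level was 0.02 in WT (SD 0.42 over probes), 0.02 in Eed-KO (SD 0.46) and 0.06 in Dnmt1-KO (SD 0.92). Array designs 1 and 2 gave 0.02 and 0.02 in WT, 0.01 and 0.02 in Eed-KO, and 0.07 and 0.06 in Dnmt1-KO. Probes near starts that hold CpG had medians of 0.27, 0.19 and 0.82, and CpG-free probes more than 1 kb from a start had -0.09, -0.08 and -0.20. CpG-free probes near starts thus lay between distal CpG-free probes and CpG-holding probes in each genotype.

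The level changed with the number of CpG in the probe. In WT the median went from 0.02 with no CpG to 0.16 with 1, 0.30 with 2, 0.37 with 3 and 0.46 with 6 or more. In Eed-KO it went from 0.02 to 0.14 with 1 CpG and 0.26 with 3, and was back at 0.19 with 6 or more. In Dnmt1-KO it went from 0.06 to 0.45 with 1 CpG, 1.16 with 3 and 1.53 with 6 or more. Both channels moved in the same direction. From 0 to 6 or more CpG the input median went from -0.05 to 1.13 in WT, from -0.04 to 1.39 in Eed-KO and from 0.00 to 3.78 in Dnmt1-KO. The IP median went from -0.02 to 1.57 in WT, from -0.02 to 1.56 in Eed-KO and from 0.13 to 5.28 in Dnmt1-KO. At 6 or more CpG, Eed-KO input was above WT input and the IP medians were nearly equal. Probe GC content moved with CpG number, from a median of 40.4% to 71.1%.

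**Figure D1:**
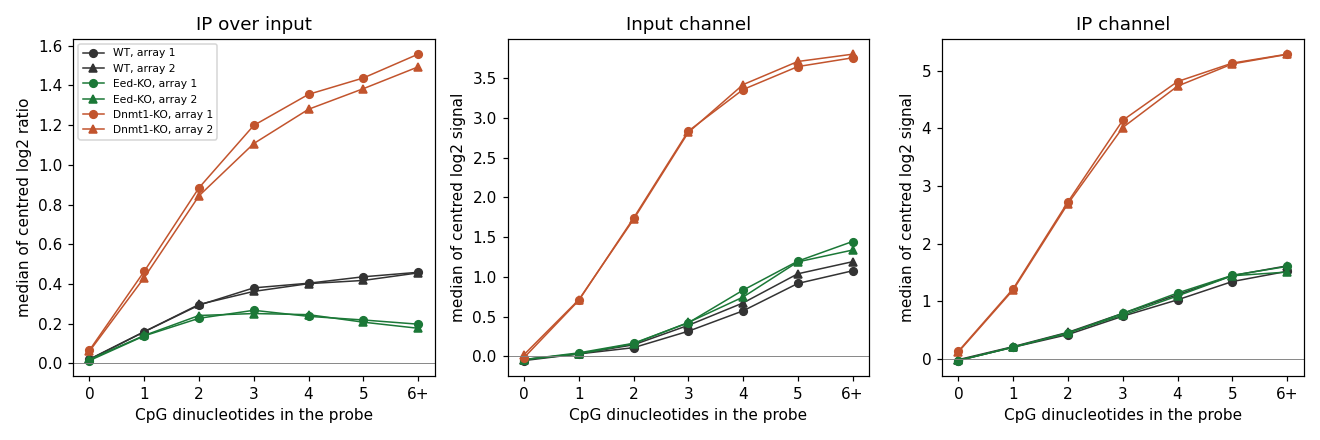
Median level (left), input signal (middle) and IP signal (right) of probes within 1 kb of a start, on the centred log2 scale, against the number of CpG dinucleotides in the probe, with 1 line per array (circles array design 1, triangles array design 2). CpG-free probes lie near 0 in all panels, and the Dnmt1-KO arrays reach an IP median of 5.28 at 6 or more CpG against 1.57 in WT.

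At equal GC content CpG-free probes were still lower than CpG-holding probes. In bins of 5 percentage points they were lower in 8 of 8 bins in every genotype. Weighted by their own numbers the difference was -0.16 in WT, -0.14 in Eed-KO and -0.42 in Dnmt1-KO, compared with -0.25, -0.17 and -0.75 without matching. With the arrays of a design set to 1 spread (median absolute deviation, MAD) the unmatched Dnmt1-KO value was -0.45. CpG-free probes were also longer than CpG-holding ones, with medians of 57 and 48 bases, and farther from the start, at 539 and 371 bp. They held more TpG and CpA, the dinucleotides that arise when methylated CpG is deaminated over evolutionary time, with medians of 14.8 and 12.3 per 100 bases. Length and distance moved with CpG number. In bins of 200 bp of distance the difference lay between -0.33 and -0.15 in WT and between -0.20 and -0.15 in Eed-KO. In Dnmt1-KO it lay between -1.04 and -0.34. The part of length in the difference was not tested.

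CpG-free probes were rarest just downstream of the start. They made up 24.97% of the probes between 0 and 200 bp downstream and 59.0% of those between 800 and 1000 bp upstream. Their median level hardly depended on distance. In WT it lay between -0.01 and 0.06 in the 10 bins of 200 bp, and in Dnmt1-KO between -0.05 and 0.18. CpG-holding probes in Dnmt1-KO went from 0.29 in the farthest upstream bin to 1.13 just downstream of the start, and in WT from 0.14 to 0.33. The largest gap between the kinds of probe was thus at the start itself, -1.04 in Dnmt1-KO and -0.33 in WT.

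**Figure D2:**
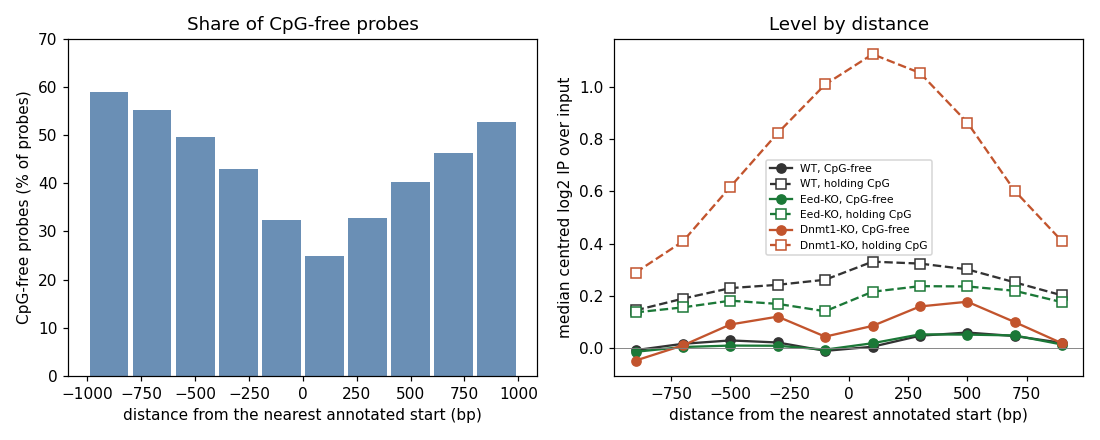
Share of probes without CpG (left, % of probes) and median level of CpG-free (filled) and CpG-holding (open) probes (right, centred log2 IP over input) in bins of 200 bp around the nearest annotated start, for the 3 genotypes. The CpG-free share is lowest, 24.97%, just downstream of the start, where the CpG-holding Dnmt1-KO median peaks at 1.13 and the CpG-free median is 0.08.

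The CpG count of the neighbouring probes spread the medians of CpG-free probes farther than distance did. CpG were counted in the other probes whose centres lay within 500 bp, about the length of the sheared fragments. CpG in the DNA between probes were not counted. The median number of neighbours was 3 in the group with no CpG and 5 in that with 10 or more. The 12451 CpG-free probes with no CpG in those neighbours had median levels of -0.11 in WT, -0.12 in Eed-KO and -0.26 in Dnmt1-KO. The 3233 with 10 or more CpG around them had 0.35, 0.32 and 1.02. The steps between were 25760 probes with 1 to 2 CpG (-0.04, -0.04 and -0.09), 19355 with 3 to 5 (0.08, 0.08 and 0.20) and 8388 with 6 to 9 (0.26, 0.25 and 0.68). Both array designs gave the same order. The gradient was present within a narrower range of GC content too. Among CpG-free probes of 40 to 50% GC the medians went from -0.07 to 0.41 in WT and from -0.04 to 0.39 in Eed-KO. In Dnmt1-KO they went from -0.11 to 1.14. Median GC content within this range still rose, from 43.4% to 44.9%. The share at 2-fold or more in WT went from 0.434% (54 probes) with no CpG around to 11.8% (380 probes) with 10 or more. For CpG-holding probes with 10 or more CpG around, the WT share was 9.69%.

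**Figure D3:**
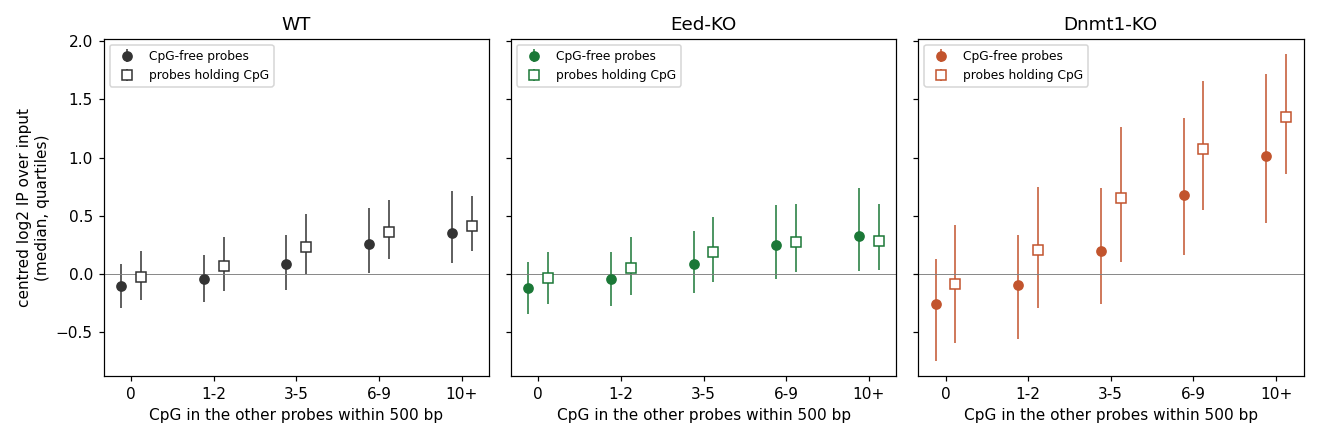
Median level with quartiles (centred log2 IP over input) of CpG-free probes (filled circles) and CpG-holding probes (open squares) within 1 kb of a start, by the number of CpG in the other probes within 500 bp, for each genotype. CpG-free medians go from -0.11 to 0.35 in WT, from -0.12 to 0.32 in Eed-KO and from -0.26 to 1.02 in Dnmt1-KO.

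Compared with their own flanks, CpG-free probes were close to level. For 27217 of them a CpG-holding probe lay within 500 bp on each side. Their level minus the mean of both flanks had a median of -0.02 in WT, 0.01 in Eed-KO and -0.05 in Dnmt1-KO, and 52.2% of them were below their flanks in WT. The channels apart were lower than at the flanks, by medians of -0.11 for input and -0.13 for IP in WT, and -0.26 and -0.28 in Dnmt1-KO. Where both flanks were at 2-fold or more, 242 of 372 CpG-free probes (65.1%) were too in WT, 291 of 453 (64.2%) in Eed-KO and 2877 of 3585 (80.3%) in Dnmt1-KO. For probes with 1 CpG in the same position the shares were 59.8%, 64.3% and 83.8%, and with 2 CpG 64.5%, 64.3% and 86.5%. With 3 or more CpG, at a median GC content of 62.2%, they were 47.5%, 46.6% and 90.5%.

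A level of 1, that is 2-fold IP over input, was used as a fixed rule of size. In WT 1946 CpG-free probes (2.81%) reached it, and over all probes of the arrays the share was 2.59%. At -1 or less there were 257 (0.371%), against 0.412% of all probes. Just outside the rule, between 0.9 and 1, lay 728 probes, and just inside, within 0.1 above it, 593. In Eed-KO 2309 (3.34%) reached 2-fold, with 3.13% over all probes, and 610 (0.882%) were at -1 or less, with 0.870% over all probes. In Dnmt1-KO 10665 (15.4%) reached 2-fold, with 15.2% over all probes, and 6124 (8.85%) were at -1 or less, with 9.33% over all probes. In each genotype both shares were near those of all probes. The share at 2-fold was below that of CpG-holding probes near starts, which was 6.58%, 7.31% and 42.6%. With the arrays set to 1 MAD the Dnmt1-KO count was not higher than the others: 4354 CpG-free probes were at 2-fold in WT, 4076 in Eed-KO and 4105 in Dnmt1-KO. The Dnmt1-KO arrays were read on scanner model G2505C with a later extraction version and the others on G2505B, so genotype and scanner cannot be told apart. In Dnmt1-KO, input was well above background at 88.1% and 86.5% of CpG-free probes on the array designs and IP at 86.3% and 84.7%, by a stricter rule of that extraction version, and in WT input was at 99.9% of them on both designs.

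Many of the WT 2-fold probes were also at 2-fold in the knockouts. Eed-KO shared 1252, which is 64.3% of the WT set and 54.2% of the Eed-KO set. Dnmt1-KO shared 1473, which is 75.7% of the WT set and 13.8% of the Dnmt1-KO set, and 1051 were at 2-fold in all 3 genotypes. For CpG-holding probes near starts the shared part of the WT set was larger, 69.4% with Eed-KO and 87.4% with Dnmt1-KO. The 1946 WT probes had medians of 1.20 in WT, 1.15 in Eed-KO and 1.64 in Dnmt1-KO, and belonged to 1416 genes. They sat in enriched, CpG-rich surroundings. The mean of the other probes within 500 bp had a median of 0.81 around them and 0.03 around all CpG-free probes, and 54.8% had 6 or more CpG around them, against 16.8% of all.

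Genes were given the mean over their CpG-free probes, with its SD over probes, where at least 3 were measured. This was possible for 9797 genes, of which 120 were at 2-fold or more in WT, 149 in Eed-KO and 1281 in Dnmt1-KO. This SD is probe scatter alone and says nothing of the spread between cultures. The highest in WT was Eif5a2 at 2.16 ± 1.02 (n = 3 probes), with 2.43, 3.02 and 1.02 at its probes from upstream to downstream of the start. In Eed-KO these probes were at 2.46, 2.72 and 1.097, and in Dnmt1-KO at 2.89, 3.90 and 1.73. Smap1, which encodes a GTPase-activating protein for Arf6, followed at 1.75 ± 0.47 (n = 3), and A030009H04Rik at 1.72 ± 0.60 (n = 4). The order depended on the background correction, since with normexp A030009H04Rik was at 1.82 and Eif5a2 at 1.62.

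Slc25a31 encodes the germ-cell ADP/ATP carrier. Its 4 CpG-free probes, between chr3:40805158 and 40806338, were at 2.26, 1.33, 1.54 and 1.51 in WT and at 2.28, 1.59, 1.68 and 1.54 in Eed-KO. In Dnmt1-KO they were at 4.56, 2.77, 2.55 and 2.43, so all 4 lay above every WT and Eed-KO value on this scale. The ratios of this Dnmt1-KO array were wider, with a MAD of 0.54 against 0.23 in WT and 0.25 in Eed-KO. Whether the order holds with the arrays set to 1 MAD was not tested. Evx2, a homeobox gene next to the Hoxd cluster, was at 1.56 ± 0.28 in WT (n = 3), 1.74 ± 0.52 in Eed-KO and 1.66 ± 1.05 in Dnmt1-KO. The probe 790 bp upstream was at 1.81 in WT and 0.44 in Dnmt1-KO, and that at 8 bp from the start at 1.26 and 2.25, so its probes moved in both directions. With normexp the WT level of Evx2 was 1.00. Cyp2r1, a vitamin D 25-hydroxylase gene, was at 1.56 ± 0.39 in WT (n = 3), 1.05 ± 0.60 in Eed-KO and 0.91 ± 0.65 in Dnmt1-KO, with all 3 probes below WT in both knockouts.

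Ccnd2, the cyclin D2 gene, was at 1.50 ± 0.38 in WT (n = 5) and 1.44 ± 0.31 in Eed-KO, and with normexp its WT level was 0.87, below 2-fold. Bhlhe41, a circadian repressor gene, was at 1.48 ± 0.33 in WT (n = 4), 1.44 ± 0.34 in Eed-KO and 2.98 ± 1.54 in Dnmt1-KO. Its Dnmt1-KO excess was not tested with the arrays set to 1 MAD either. Ptpdc1 had 1.67 ± 0.53 and Micu2 1.55 ± 1.51 (n = 3 each), the latter with a downstream probe at -0.16 beside upstream probes at 2.70 and 2.12. The genes were chosen by these CpG-free levels, so their CpG-holding probes are given as a description. They were at 1.08 for Eif5a2, 0.81 for Smap1, 1.64 for A030009H04Rik, 1.80 for Slc25a31 and 1.64 for Bhlhe41, so that the last pair of genes was higher at CpG-holding probes and Eif5a2 and Smap1 at CpG-free ones.

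**Figure D4:**
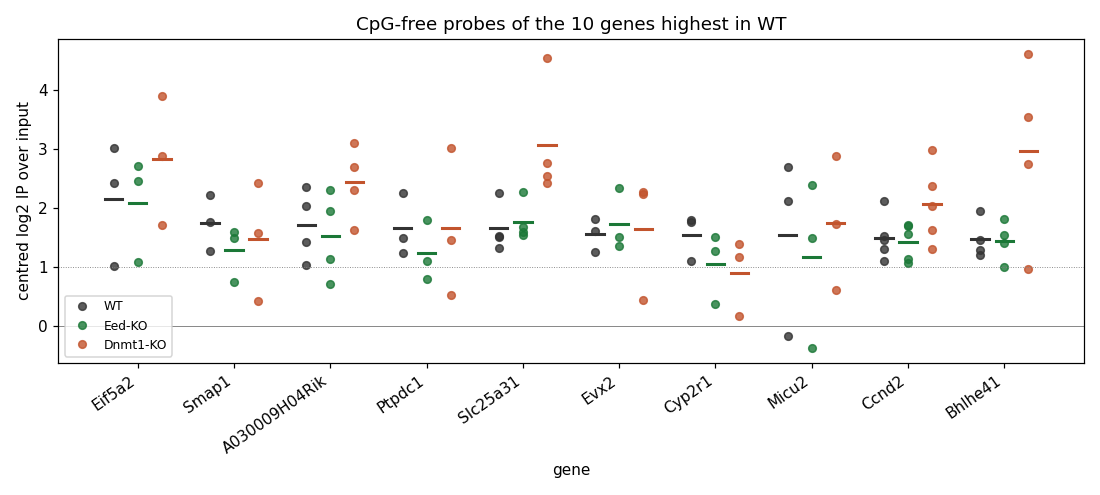
Level (centred log2 IP over input) of each CpG-free probe within 1 kb of the start of the 10 genes with the highest WT mean, in the 3 genotypes; points are probes, short bars their mean, and the dotted line marks 2-fold. Eif5a2 has the highest WT mean (2.16), and the 4 Slc25a31 probes in Dnmt1-KO lie above all its WT points. The arrays are not set to 1 MAD here.

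Some starts had no CpG in any probe assigned to them. Each probe was assigned to the first gene in its annotation, so CpG-holding probes assigned to another gene could still lie nearby. Of the genes with 4 or more assigned probes within 1 kb, 342 had CpG-free probes alone. Their gene levels had medians of -0.16 in WT, -0.17 in Eed-KO and -0.50 in Dnmt1-KO, and the other 9455 genes with 3 or more CpG-free probes had 0.03, 0.03 and 0.19. None of the 342 was at 2-fold in WT or Eed-KO, and 3 were in Dnmt1-KO, where 13.5% of the other genes were. These were Tex19.1 (1.30 ± 0.80), B430319F04Rik-Ampd3 (1.16 ± 1.06) and Cox4i2, a gene for a cytochrome c oxidase subunit (1.02 ± 0.67), the latter 2 named after their values were seen.

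The highest of these starts in WT was Tex19.1, a gene of the germ line and of ES cells, at 0.96 ± 0.54 (n = 4). Its probes were at 1.47, 1.23, 0.91 and 0.23 in WT, at 1.64, 1.09, 0.40 and -0.02 in Eed-KO and at 1.33, 2.14, 1.49 and 0.23 in Dnmt1-KO. All were lowest 803 bp downstream of the start. None of these probes holds a CpG, and no CpG-holding probe lay within 1 kb. The DNA between the probes is not free of CpG. The RefSeq promoter (GRCm38.p6, chr11:121145893-121146142, + strand) holds 15 CpG in the 250 bases before the start, printed here with CpG in capitals because the array holds no probe with them. This build is not that of the array coordinates, so the positions cannot be compared.
Tex19.1, promoter: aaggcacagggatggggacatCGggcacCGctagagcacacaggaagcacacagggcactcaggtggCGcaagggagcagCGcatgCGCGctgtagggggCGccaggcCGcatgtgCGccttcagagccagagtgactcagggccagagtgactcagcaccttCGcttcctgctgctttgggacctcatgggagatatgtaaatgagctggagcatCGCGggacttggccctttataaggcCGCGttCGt

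Next were Acot4, a peroxisomal acyl-CoA thioesterase gene, at 0.61 ± 0.22 (n = 5), Thpo, the thrombopoietin gene, at 0.36 ± 0.09 (n = 5), Galntl6 at 0.35 ± 0.37 (n = 5), 9030025P20Rik at 0.33 ± 0.42 (n = 6) and Zfp764 at 0.31 ± 0.17 (n = 5). With normexp 9030025P20Rik was at 0.80, above Tex19.1 at 0.75, and Galntl6 was at 0.085, so the order of these starts depended on the background correction. RefSeq promoters of 300 bases around the start were matched for 5 of these 6 genes. They held 16 CpG at Tex19.1, 7 at Acot4, 9 at Galntl6, 6 at Zfp764 and 5 and 13 at the 2 starts of Thpo. At these 5 genes a start without CpG in its assigned probes was therefore not a start without CpG in its DNA. The genes were picked for their WT levels, so this does not extend to the other starts of the class. Probes assigned elsewhere could hold CpG near these starts too. Other probes within 500 bp held 6 CpG at the Galntl6 probe 103 bp downstream of the start. At the Thpo probe 129 bp upstream they held 3. Over the whole class only 267 of 342 genes (78.1%) matched a reference promoter, which is under 80%, so a comparison of promoter CpG between classes of start is void.

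The Eed-KO comparison asks whether Rybp occupancy differs without Polycomb repressive complex 2. Over all CpG-free probes the difference from WT had quartiles of -0.19 and 0.18 around a median near 0. It was 1 or more at 199 probes (0.288%, against 0.31% of all probes) and -1 or less at 353 (0.51%, against 0.451%), shares close to the background. With normexp background correction the counts were 18 and 24. Both knockout comparisons use the same WT arrays.

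Most probes with Eed-KO differences past 1 were not joined by their surroundings. Of the 199 higher probes, 197 had others within 500 bp, and these differed by at least 0.5 the same way at 8 (4.06%). Of the 353 lower probes, 349 had others, which did so at 29 (8.31%). Over all CpG-free probes the surroundings were higher by at least 0.5 at 0.623%, so the share at the higher probes was above that of all. A share of all with lower surroundings was not computed, so the 8.31% has no such comparison. Their input was dim, with median WT input signals of -1.49 and -1.74, and the input channel differed more than the IP channel, by -0.69 against 0.47 at the higher probes and by 0.81 against -0.44 at the lower ones. Among probes at 2-fold in WT or Eed-KO, the highest difference was at Ptprn2, a receptor phosphatase gene. Its probe was at 0.14 in WT and 2.47 in Eed-KO, with input at -1.28 and -4.03, the latter not well above background, and the probes around it were at 0.89 and 0.60. At Thbs2, the thrombospondin 2 gene, the lowest probe was at 1.11 in WT and -4.28 in Eed-KO, with IP at 0.72 and -5.50, the latter not well above background, and the probes around it were at 0.74 and 0.98. At Cxcl1, a neutrophil chemokine gene, a probe 220 bp upstream was at 2.27 in WT and at -0.11 and -0.01 in the knockouts. Its WT input was -3.95, and the probes around it were at 0.63, 0.53 and 0.76.

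Among genes at 2-fold in WT or Eed-KO whose CpG-free probes all differed in 1 direction, the highest was Nefl, the neurofilament light chain gene, at 1.68 ± 0.38 against 0.86 ± 0.70 in WT (n = 3; difference 0.83 ± 0.26 SE over probes). Its probes were at 0.21, 1.61 and 0.75 in WT and 1.25, 1.92 and 1.88 in Eed-KO. Both channels were higher in Eed-KO, input by 0.53 and IP by 1.36. Gli1, the hedgehog effector gene, differed by 0.61 ± 0.17, with probes at 0.30, 0.16 and 0.95 in WT and 0.75, 1.103 and 1.40 in Eed-KO. The cofactor gene Vgll2 (0.60 ± 0.25), the potassium channel genes Kcnk13 (0.59 ± 0.06) and Kcnj8 (0.57 ± 0.15) and the homeobox gene Hoxb1 (0.56 ± 0.07) followed. All 6 were above WT under each setting tried, with Hoxb1 lowest at 0.14 (with normexp), and none of these differences reached 2-fold. Their CpG-holding probes went from 1.22 to 1.97 at Nefl and from 1.05 to 1.43 at Kcnk13, but were at 0.36 and 0.37 at Gli1, 1.07 and 1.06 at Vgll2 and 0.50 and 0.47 at Hoxb1 in WT and Eed-KO.

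The lowest was Marcks, a gene for a protein kinase C substrate, at 0.26 ± 0.73 against 1.05 ± 0.49 in WT (n = 3; difference -0.79 ± 0.15). Its probes were at 1.35, 1.32 and 0.49 in WT and 0.58, 0.78 and -0.57 in Eed-KO. Galnt3 (-0.60 ± 0.18), the chaperone gene Hspa4l (-0.53 ± 0.26), the protease gene Tasp1 (-0.52 ± 0.05), Cyp2r1 (-0.50 ± 0.13) and the netrin receptor gene Unc5d (-0.49 ± 0.24) followed. With normexp Galnt3 was at -0.26, Hspa4l at -0.30 and Unc5d at -0.18. At Marcks the 7 CpG-holding probes were at 0.96 in WT and 0.90 in Eed-KO. Those of Galnt3 were at 0.47 and 0.07, of Hspa4l at 0.54 and 0.50 and of Tasp1 at 0.93 and 0.65. Cyp2r1 had 1.26 and 0.94 there, and Unc5d 0.85 and 0.73.

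The Dnmt1-KO comparison asks whether occupancy differs where maintenance methylation is missing, here at probes that carry no methylation site. The median difference was 0.06 (quartiles -0.40 and 0.52). It was 1 or more at 7604 CpG-free probes (11.0%, against 10.7% of all probes) and -1 or less at 5528 (7.99%, against 8.16%), again near the background. CpG-holding probes near starts gave 27.4% and 3.31%. The split between higher and lower depended on the processing. Higher probes were 57.9% of those called, 83.0% with normexp, 48.7% with 1 MAD and 29.9% in the authors' value table.

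The surroundings of Dnmt1-KO probes past 1 often went the same way. The limit of 0.5 is the same as for Eed-KO, although the Dnmt1-KO ratios were wider, with a MAD of 0.54 and 0.50 on the array designs against 0.25 and 0.26 in Eed-KO and 0.23 and 0.23 in WT. Of 7590 higher probes with others within 500 bp, 5798 (76.4%) had neighbours higher by at least 0.5, and 26.1% of all CpG-free probes did. Of 5430 lower ones, 3068 (56.5%) had neighbours lower by at least 0.5, for which no share over all CpG-free probes was computed. Higher probes differed by medians of 0.72 in input and 2.24 in IP, and lower ones by -0.62 and -2.03. The difference followed the surrounding CpG, from a median of -0.16 with no CpG around to 0.64 with 10 or more. With 1 MAD these were -0.03 and 0.11, and with 1 MAD and the GC trend removed -0.03 and 0.07.

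Icam5, Lhfp, Gjb5, Tert, Msl3 and Gripap1 had the highest differences among genes at 2-fold in WT or Dnmt1-KO whose CpG-free probes all lay on the same side of WT. Icam5, a neuronal adhesion gene, was at 2.96 ± 0.36 against 0.60 ± 0.30 in WT (n = 4; difference 2.36 ± 0.18 SE). Its probes were at 0.68, 0.17, 0.87 and 0.68 in WT and 2.80, 2.89, 3.48 and 2.65 in Dnmt1-KO. The genes were picked for large differences with all probes on the same side, so the choice itself favoured probes without overlap. Tert, the telomerase reverse transcriptase gene, was at 2.44 ± 0.83 against 0.21 ± 0.15 (n = 6; difference 2.23 ± 0.30). Its WT probes lay between 0.07 and 0.46, its Eed-KO probes between -0.32 and 0.61 and its Dnmt1-KO probes between 1.44 and 3.77.

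Gjb5, a connexin gene of epithelia and placenta, was the least CpG-rich of these. Its 5 CpG-free probes held a mean of 0.20 CpG around them and were at 0.46, 0.26, -0.20, 0.64 and 0.36 in WT. In Dnmt1-KO they were at 1.84, 3.89, 3.40, 2.70 and 1.13. The 1 CpG-holding probe near this start was at 0.76 in WT and 1.35 in Dnmt1-KO. Lhfp differed by 2.33 ± 1.06, with 1 of its 3 probes at 0.03 in WT and 0.25 in Dnmt1-KO. Msl3, a gene of the MSL histone acetyltransferase complex, differed by 2.19 ± 0.12 and Gripap1, where input was not well above background at 2 of 4 probes in Dnmt1-KO, by 2.17 ± 0.68. With 1 MAD these 6 differences lay between 0.74 at Msl3 and 1.22 at Tert, and Icam5 was at 0.92. With normexp Gripap1 was at 1.19.

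Few genes below WT could enter this selection. The 2-fold requirement in WT or Dnmt1-KO was met by 1281 genes in Dnmt1-KO and 120 in WT, and only 5 of the 796 selected genes were lower, a split that the requirement fixed. Over all 9797 genes 534 differed by 1 or more and 213 by -1 or less. Rnf225 was at 0.59 ± 0.50 against 1.44 ± 0.19 in WT (n = 4; difference -0.85 ± 0.25), with probes at 1.41, 1.19, 1.64 and 1.51 in WT and 0.18, 0.49, 0.39 and 1.31 in Dnmt1-KO. The protocadherin gene Pcdh18 differed by -0.70 ± 0.19, Cyp2r1 by -0.65 ± 0.16 and the acetyl-CoA transporter gene Slc33a1 by -0.17 ± 0.03. Pcdh18 and Cyp2r1 each had 1 probe not well above background in Dnmt1-KO. With 1 MAD these differences were -1.60 at Rnf225, -1.29 at Pcdh18, -1.57 at Cyp2r1 and -1.07 at Slc33a1, which was at -0.49 in the authors' value table and -0.019 with the GC trend removed. With normexp Pcdh18 was at -0.39. The next place fell to Fabp5 with a difference of 0.28 ± 0.13. Its direction turned with 1 MAD (-0.48) and in the authors' value table (-0.04).

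Several families of tissue-restricted genes held many CpG-free probes. Of the probes near olfactory receptor genes 76.4% held no CpG, 4232 in all. Their medians were -0.16 in WT, -0.16 in Eed-KO and -0.58 in Dnmt1-KO. At 2-fold were 0, 3 and 25 of them (0%, 0.0709% and 0.591%), against 2.59%, 3.13% and 15.2% of all probes. Olfr94 was the highest gene at 0.52 ± 0.24 (n = 3). Vomeronasal receptors had 461 CpG-free probes at -0.18, -0.17 and -0.62, and defensins, antimicrobial peptide genes, 138 at -0.14, -0.16 and -0.29. Cytochrome P450 genes had 317 at -0.08, -0.06 and -0.26, terminal differentiation genes 456 at -0.04, -0.04 and -0.24, chemokine and interleukin genes 567 at -0.04, -0.03 and -0.10, and keratins 364 at medians of -0.01 in Eed-KO and -0.14 in Dnmt1-KO. Over all CpG-free probes the medians were 0.02, 0.02 and 0.06. The WT medians of olfactory receptors, vomeronasal receptors, defensins and cytochrome P450 genes were below 0 under each background correction and scaling tried. Those of keratins (0.04), chemokine and interleukin genes (0.01) and terminal differentiation genes (0.01) were above 0 with centring on the mode. The keratin WT median was -0.0004 without it. It was also above 0 with the GC trend removed (0.012) and with 1 MAD and the GC trend removed (0.016).

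Regulatory and housekeeping lists had fewer CpG-free probes and higher levels at them. Of the probes of developmental transcription factor genes 22.9% held no CpG. These 315 probes had medians of 0.81 in WT, 0.89 in Eed-KO and 1.03 in Dnmt1-KO. At 2-fold were 106 of them in WT (33.7%), 136 in Eed-KO (43.2%) and 165 in Dnmt1-KO (52.4%). The shares over all probes were 2.59%, 3.13% and 15.2%. The CpG-holding probes of these genes were at 0.78, 0.88 and 1.69. In Eed-KO 221 of the 315 were above WT, as were 49.2% of all CpG-free probes, with a median difference of 0.15, which was 0.10 with 1 MAD. The Dnmt1-KO difference of 0.31 was -0.38 with 1 MAD, so its direction depended on the scaling. Hox genes had 88 CpG-free probes at 0.66, 0.56 and 0.60, with 17 (19.3%) at 2-fold in WT, against 2.59% of all probes. Hoxc12 was the highest at 1.24 ± 0.24 (n = 4), and CpG-holding Hox probes were at 0.85, 0.80 and 1.47.

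Germ-line and meiosis genes had 229 CpG-free probes at 0.22, 0.27 and 0.42. In WT 32 of these (14.0%) were at 2-fold, against 2.59% of all probes. CpG-holding probes of the same genes were at 0.70, 0.62 and 1.47. The median Dnmt1-KO difference of the CpG-free probes, 0.19, was -0.14 with 1 MAD. Pluripotency genes had 129 at 0.30, 0.28 and 0.72, led by Tcl1, an Akt coactivator gene of ES cells, at 0.87 ± 0.28 (n = 6), or 0.55 with normexp. With 1 MAD the pluripotency medians were 0.40, 0.34 and 0.44, and the median Dnmt1-KO difference of 0.46 was 0.12. Ribosomal protein genes had 159 at 0.42, 0.16 and 0.24, the last of which was -0.13 in the authors' table. In Eed-KO 18 of these 159 were above WT, against 49.2% of all CpG-free probes, and the median difference was -0.25, between -0.37 and -0.18 over the other background correction, scalings and the authors' table.

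**Figure D5:**
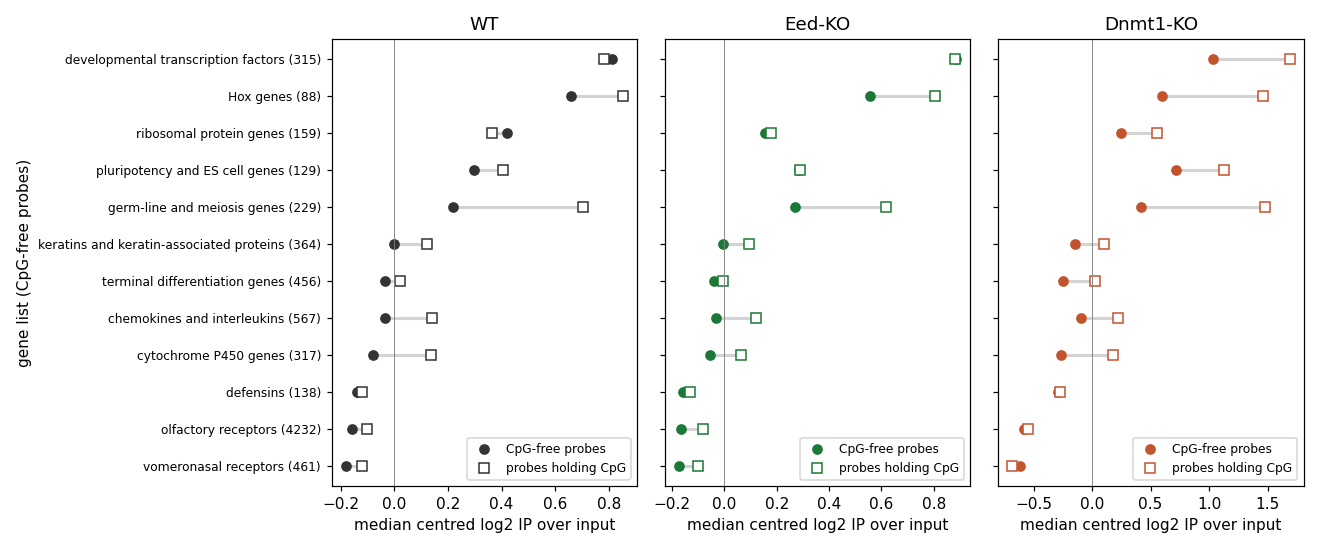
Median level (centred log2 IP over input) of CpG-free probes (filled) and CpG-holding probes (open) of 12 gene lists in the 3 genotypes, with the number of CpG-free probes in parentheses. Developmental transcription factors are highest at CpG-free probes in WT (0.81) and vomeronasal receptors lowest (-0.18).

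Short motifs were counted in the probe sequences on both strands. CCAAT was in 8.99% of CpG-free and 6.90% of CpG-holding probes near starts, and TATAAA in 3.83% and 2.55%. GCCATNTT, the core of sites of YY1, a Polycomb-associated zinc-finger protein that binds Rybp, was in 0.857% and 0.847%. The T-box element TCACACC was in 0.627% and 0.491%. In all probes near starts the shares were 7.78% for CCAAT, 3.09% for TATAAA, 0.851% for GCCATNTT and 0.548% for TCACACC. Of CpG-free probes 246 held both CCAAT and TATAAA, and 7 to 47 held any other pair. In WT the median level with and without the motif was 0.02 and 0.02 for CCAAT, -0.05 and 0.02 for TATAAA, 0.01 and 0.02 for GCCATNTT and 0.05 and 0.02 for TCACACC. Probes with TATAAA had a median GC content of 36.7%, against 40.4% without it.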

How the data were processed

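The data are 2-colour Agilent promoter arrays, 1 array of each of 2 designs for WT, Eed-KO and Dnmt1-KO. The deposited scanner files hold spot intensity that the authors extracted with Agilent Feature Extraction, per the file headers version 9.5.3.1 for WT and Eed-KO and 10.1.1.1 for Dnmt1-KO (the submitters' processing notes name 9.5.3.1), with background-subtracted, dye-normalised processed signals. The authors' deposited value table holds log10 ratios, which differed from the scanner ratios by a constant per array, and the log2 values were computed here from the deposited intensity.

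Control spots and spots flagged as outliers on any array of a design were left out. Levels are log2 of red (IP) over green (input) processed signal, centred on each array's median, with no loess or quantile step. A dye effect cannot be separated, since dyes were not swapped. Distances and gene names are those annotated in the Dnmt1-KO scanner files, and 64903 probes were named through RefSeq. Probe sequences are those of the WT scanner files. Named genes are the 10 highest in WT among those with at least 3 CpG-free probes, and the highest of each list. Also named are the 6 highest and 6 lowest differences per knockout with all probes in 1 direction among genes at 2-fold. The 6 highest starts without an assigned CpG-holding probe were named too. For single probes the 8 highest in WT and the 6 highest differences were named. Some genes that these rules name are not reported here. The 6 lowest single-probe differences, the surroundings of probes past 1, detection at named probes, list medians by scaling and the mitochondrial probes were added after values were seen. The members and lists were chosen with earlier results of these data known. SD and SE over probes cover probe scatter only.

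Alternatives were normexp (limma 3.58.1, R 4.3.3), the authors' table, centring on the mode, arrays set to 1 MAD, a lowess GC correction (statsmodels 0.14.6), spot filters, a 500 bp limit, the other annotation, each design alone, and 1.5-fold and 3-fold levels. Python 3.11.15, pandas 2.3.3 and numpy 2.4.6 were used, and the calculations were tested on simulated data.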

Additional observations from a re-analysis of the deposited data

How the results depend on the processing

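The 8 main values were recomputed under 15 other settings. The medians moved by under 0.1 except in the authors' table, whose centring gave -0.088 in Eed-KO, -0.33 in Dnmt1-KO and -0.25 for Dnmt1-KO minus WT, with 6235 CpG-free probes at 2-fold in Dnmt1-KO. Counts at 2-fold depended on scale and background. Normexp gave 1022 in WT and 1486 in Eed-KO. Arrays set to 1 MAD gave 4354 in WT, 4076 in Eed-KO and 4105 in Dnmt1-KO, and 4503, 4025 and 3866 with the GC trend also removed. Fewer probes gave fewer calls: within 500 bp 959, 1100 and 5879, on array design 1 alone 998, 1117 and 5684, and on array design 2 alone 948, 1192 and 4981. A 1.5-fold level gave 6867, 7668 and 18142, and a 3-fold level 223, 339 and 4707. Among named genes, Fabp5 in Dnmt1-KO minus WT reversed to -0.040 in the authors' table, -0.48 with 1 MAD and -0.46 with the GC trend also removed. Medians near 0 also changed sign: WT was -0.065 in the authors' table, Eed-KO -0.0017 with normexp, Dnmt1-KO minus WT -0.0037 with 1 MAD and -0.014 with the GC trend also removed, and Eed-KO minus WT 0.0059 at probes well above background. Of the 62 smaller results, 36 moved under at least 1 setting. No paired analysis was possible because each genotype had 1 array per design, and for the same reason no array could be left out within a group.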

Other observations

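The lowest CpG-free probes included those of the mitochondrial genome, which is not packaged in nucleosomes. All 18 were at -1 or less in each genotype. Their median level was -2.65 in WT, with a range from -3.68 to -1.52, -3.65 in Eed-KO and -3.99 in Dnmt1-KO. Input was far above the array median, at 7.44, 7.70 and 4.81, and IP at 4.51, 3.72 and 0.92. They made up 5, 12 and 15 of the 20 lowest CpG-free probes. The 15 CpG-holding mitochondrial probes were at -2.88, -3.91 and -3.89, so low levels there were found with and without CpG.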
